A study of Mus musculus with 4 samples.

Results

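*Sst*-positive interneuron nuclei of the embryonic mouse cortex were compared with nuclei of the same interneuron lineage in which no *Sst* transcript was seen. Both kinds came from single-nucleus RNA sequencing of medial neocortex of E16.5 embryos. Among nuclei with 1500 to 60000 transcripts, a nucleus passed the gate with at least 2 transcripts of *Gad1* and *Gad2* together and at least 3 of *Lhx6* and *Nxph1* together. It was called *Sst*-positive with at least 1 *Sst* transcript and *Sst*-zero with none, so that both kinds were selected on the measured counts of these 5 genes. The gate held 209 *Sst*-positive and 2317 *Sst*-zero nuclei, out of 29656 retained nuclei. Dnmt1 KO replicates 1 and 2 contributed 16 and 130 *Sst*-positive nuclei, and control replicates 1 and 2 contributed 37 and 26. The corresponding *Sst*-zero nuclei numbered 272, 1032, 647 and 366. Values of the 4 libraries are given in this order throughout, and "replicate" is left out in lists.

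The control embryos carried *Sst-Cre* and the tdTomato reporter, and the Dnmt1 KO embryos carried the same alleles and in addition *Dnmt1 loxP2*. Each genotype had 2 libraries. The study lists as many brains as libraries for each genotype, and that each library is a separate brain is inferred from these equal numbers. Cre is driven by *Sst*, so the deletion is confined by design to cells that have switched on *Sst*, and every nucleus used here, control nuclei included, came from an *Sst-Cre* animal. The gene table has no entry for Cre or tdTomato. A recombined nucleus could therefore not be told from an unrecombined one, and a nucleus without an *Sst* transcript may have belonged to a cell that expressed the gene. Since both kinds of nuclei were compared within a library, the genotype of the animal, sex and batch were the same on both sides of the comparison. The deletion itself was not, since in the Dnmt1 KO libraries it follows *Sst* by design. *Sst* status and deletion therefore cannot be told apart within those libraries.

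Cortical interneurons arise outside the cortex and migrate into it. Those born in the medial ganglionic eminence (MGE) depend on the homeodomain factor LHX6 and later become mainly somatostatin (SST) or parvalbumin (PV) interneurons. SST is a secreted neuropeptide that marks Martinotti and other dendrite-targeting cells, whereas PV marks fast-spiking cells, and the PV protein appears only after birth. GAD1 and GAD2 synthesize the transmitter GABA, and *Nxph1* encodes a secreted synaptic glycoprotein. At the age sampled, MGE cells of both future classes are still migrating and maturing.

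*Sst* itself lies on chromosome 16 between 23707321 and 23711733 (GRCm39, minus strand, ENSMUSG00000004366.5). Its proximal promoter is a textbook target of the cAMP-responsive factor CREB. The 250 bases upstream of the *Sst* and *Npy* start sites, from RefSeq on build GRCm38.p6 and on the strand of the gene, are shown because *Sst* chose the nuclei and *Npy* is the other peptide gene that differed between them. Capitals mark the full cAMP response element TGACGTCA.
Sst promoter, chr16:23890845-23891094, minus strand: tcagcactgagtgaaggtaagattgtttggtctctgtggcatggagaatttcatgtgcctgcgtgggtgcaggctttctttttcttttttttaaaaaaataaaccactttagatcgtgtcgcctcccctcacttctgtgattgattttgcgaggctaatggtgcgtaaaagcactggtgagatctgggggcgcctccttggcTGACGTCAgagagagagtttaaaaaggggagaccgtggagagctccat
Npy promoter, chr6:49822460-49822709, plus strand: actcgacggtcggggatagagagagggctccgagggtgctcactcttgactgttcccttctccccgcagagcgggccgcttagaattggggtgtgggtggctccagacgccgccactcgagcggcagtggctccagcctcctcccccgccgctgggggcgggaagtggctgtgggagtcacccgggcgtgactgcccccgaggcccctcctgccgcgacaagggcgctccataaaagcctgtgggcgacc
The element in *Sst* begins at position -48 from the start site, and the upstream window had a GC content of 47.2%. No copy was found in the *Npy* window, whose GC content was 69.2%. RefSeq promoter windows of 300 bases matched 134 of the 173 genes that were higher in *Sst*-positive nuclei in the comparison across genes, and 5 of these 134 genes (3.73%) held TGACGTCA on either strand. Of 8229 tested genes with a window, 3.83% held it, and of the 27025 genes with a window in the set used, 2.03% did. None of the 45 windowed genes among the 61 lower ones held it. The homeodomain core TAATTA, also searched on both strands, was found in 4.48% of the higher and 11.1% of the lower genes (6 of 134 and 5 of 45), against 3.41% of the tested genes. The shorter core TGACG was found in 26.1% of the higher and 26.7% of the lower genes, against 37.2% of the tested genes.

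The libraries held between 96455278 and 201141704 transcripts, and no barcode was shared between libraries. *Sst*-positive nuclei were deeper than *Sst*-zero nuclei, with median transcript numbers of 14010, 13277, 15344 and 23095.5 against 11446.5, 9982.5, 10533 and 17502.5. Control replicate 2, which the labels place in another batch, was the deepest. Because a deeper nucleus has more chances to show an *Sst* transcript, the comparison across genes was repeated with *Sst*-zero nuclei matched to the *Sst*-positive ones on transcript number. The summed *Sst*-positive profiles rested on 236485, 2035923, 760236 and 688879 transcripts. Dnmt1 KO replicate 1 was thus the thinnest profile, and single nuclei weigh on it. Nuclei called doublets made up 6.25%, 11.5%, 13.5% and 15.4% of the *Sst*-positive and 10.7%, 14.6%, 8.96% and 16.7% of the *Sst*-zero nuclei.

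The genes of the gate are given as a description only, because they chose the nuclei. *Sst* was sparse: 131 of the 209 *Sst*-positive nuclei held a single *Sst* transcript, 33 held 2, 26 held 3, and 6 held 6 or more. In CPM, counts of a summed profile rescaled to an equal total, *Sst* stood at 84.6, 131, 64.5 and 49.4 in the *Sst*-positive sums. *Gad2* was at 901, 905, 916 and 906 CPM in *Sst*-positive and at 892, 829, 922 and 827 CPM in *Sst*-zero sums. The 2 ranges were close to each other. *Gad1* was at 588, 536, 412 and 428 CPM, compared with 429, 485, 511 and 405 CPM in *Sst*-zero sums. *Lhx6* was at 436, 241, 284 and 395 CPM, compared with 329, 236, 296 and 381 CPM in *Sst*-zero sums. *Nxph1* was at 8554, 7484, 5932 and 5619 CPM, compared with 7559, 7015, 6990 and 6297 CPM in *Sst*-zero sums. Apart from *Sst*, the gate genes thus overlapped between the 2 kinds of nuclei.

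The gate had few nuclei at its edges. Of all 257 retained nuclei with *Sst*, 48 fell outside it, and 20 of these met the gate for excitatory neurons (at least 3 transcripts of *Neurod2* and *Neurod6*, none of *Gad1* or *Gad2*). A single *Sst*-positive nucleus had a *Gad1* and *Gad2* sum of exactly 2, and none was left out for a sum of 1. None had an *Lhx6* and *Nxph1* sum of exactly 3, and 1 was left out with a sum of 2. The median *Lhx6* and *Nxph1* sums of the *Sst*-positive nuclei, 112.5, 93, 98 and 118.5 transcripts, were far above the edge. Most of this sum was *Nxph1*, which was also seen in 13.2% of the excitatory nuclei. In Dnmt1 KO 2, *Lhx6* was seen in 112 of 130 *Sst*-positive and 879 of 1032 *Sst*-zero nuclei. The remaining gated nuclei there passed on *Nxph1* alone.

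The summed profiles were then compared across genes, to describe what distinguished *Sst*-positive nuclei within the MGE lineage. *Sst*-positive nuclei had higher levels of the peptide *Npy*, of the glutamate receptor genes *Grin3a* and *Grm7*, and of *Lingo2*, *Col25a1* and *Prkcq*. They had lower levels of *Erbb4*, *Zeb2*, *Mef2c* and *Foxp2*, and of *Smoc1* and *Adamts17*. Of 10726 genes tested, 234 (2.18%) passed an adjusted p of 0.05 in edgeR's quasi-likelihood test with library as a block. Of these, 173 were higher (1.61% of the genes tested) and 61 lower (0.569%) in *Sst*-positive nuclei. The median log2 fold change was 1.06 among the higher and -0.99 among the lower genes, while over all tested genes it was -0.00. The levels of the 4 libraries did not overlap between the 2 kinds of nuclei for 125 of the 173 and 50 of the 61 genes, against 3.45% and 4.19% of all tested genes (7.64% in either direction). The direction was the same in every library for 161 and 61 of them, against 20.5% of all tested genes in either direction. Without the library block, 115 genes passed, of which 106 were among the 234. Without Dnmt1 KO replicate 2, which supplied most of the *Sst*-positive nuclei, 52 genes passed, all of them among the 234. Without control replicate 1, 105 passed, and without Dnmt1 KO replicate 1 or control replicate 2 the counts were 237 and 177.

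The split into higher and lower genes moved with 2 settings. Requiring at least 2 *Sst* transcripts, which left 1, 63, 8 and 6 *Sst*-positive nuclei, gave 57 higher and 59 lower genes. Without the filter on low counts, 319 genes were higher and 337 lower. With *Sst*-zero nuclei matched on depth, 142 genes were higher and 66 lower, of which 157 were shared with the 234.

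SST interneuron subtype markers were examined first. This list holds 20 genes that mark subtypes of mature SST cells, and 8 of them had enough transcripts to be tested. 4 of the 8 were higher, none was lower, and the list's median log2 fold change was 0.82. Over all genes tested, 1.61% were higher and 0.569% lower, the shares to set beside the counts of this and the following lists. Without Dnmt1 KO replicate 2, 1 of them passed, and with at least 2 *Sst* transcripts required, 2 did. *Npy* encodes neuropeptide Y, which a part of the cortical SST interneurons releases together with SST. *Npy* stood at 33.8, 52.1, 65.8 and 42.1 CPM in *Sst*-positive and at 7.70, 10.5, 13.4 and 10.3 CPM in *Sst*-zero sums. Every *Sst*-positive sum was thus above every *Sst*-zero sum, with means of 48.4 ± 13.7 and 10.5 ± 2.34 CPM (SD, n = 4). The log2 fold change was 2.24 (SE 0.179, adjusted p = 0.000479). *Npy* was close to absent in the other neurons of the tissue, with 1.23 CPM in nuclei that had *Gad1* or *Gad2* but neither *Lhx6* nor *Nxph1* and 4.70 CPM in excitatory nuclei, both over all libraries.

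*Grin3a* encodes an NMDA receptor subunit that lowers calcium entry and is typical of SST interneurons in the adult cortex. Its levels were 630, 172, 73.7 and 123 CPM in *Sst*-positive and 31.9, 39.8, 31.7 and 33.3 CPM in *Sst*-zero sums. The groups did not overlap, but Dnmt1 KO replicate 1 stood apart at the top, where 1 of 16 nuclei gave 29.5% of the *Grin3a* transcripts. The log2 fold change was 2.38 (SE 0.381, adjusted p = 0.0126), and *Grin3a* overlaps *Ppp3r2* in the annotation, so the 2 genes may share reads. *Grin3a* did not pass without Dnmt1 KO replicate 2 (2.48, adjusted p = 0.109) or with at least 2 *Sst* transcripts required (0.87, adjusted p = 0.760).

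*Elfn1* encodes a postsynaptic adhesion protein that recruits presynaptic metabotropic glutamate receptors onto SST cells. *Elfn1* was at 393, 261, 166 and 386 CPM, compared with 195, 112, 125 and 204 CPM in *Sst*-zero sums. It was higher in every library, although the lowest *Sst*-positive sum, control 1, lay below the 2 highest *Sst*-zero sums (log2 fold change 0.91, SE 0.132, adjusted p = 0.00689).

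The other 4 tested markers did not pass. *Reln*, which encodes the extracellular guidance protein reelin, was above the *Sst*-zero sum in each of the 4 libraries (log2 fold change 0.72, adjusted p = 0.0746). The calcium-binding protein gene *Calb1* was at 0, 118, 25.0 and 1.45 CPM, compared with 13.5, 40.4, 23.2 and 7.44 CPM in *Sst*-zero sums, with no common direction (adjusted p = 0.626). *Nos1*, the neuronal nitric oxide synthase of long-range SST cells, had a log2 fold change of -0.05, and *Etv1*, a transcription factor gene, one of -0.27. *Etv1* was at 12.7, 75.6, 25.0 and 5.81 CPM, compared with 12.4, 45.0, 73.0 and 21.8 CPM in *Sst*-zero sums. It was thus higher in the Dnmt1 KO and lower in the control libraries, and its interaction with genotype, described below, did not pass (edgeR adjusted p = 0.809). *Calb2*, *Hpse*, *Myh8*, *Chrna2*, *Crh* and *Tacr1*, markers of mature SST subtypes, were at 0 in every *Sst*-positive sum.

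**Figure D1:**
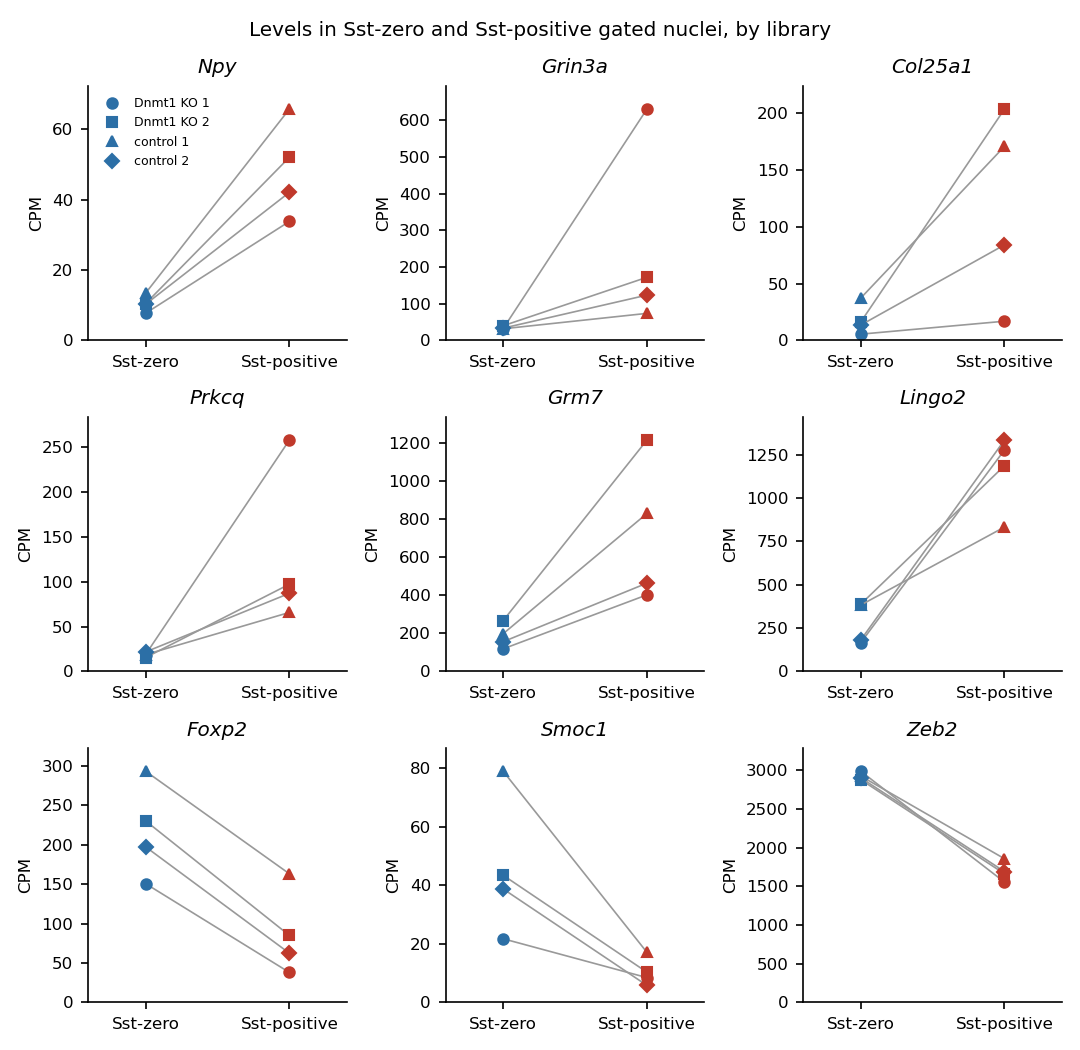
Levels of 9 genes, in CPM on a linear axis from 0, in the *Sst*-zero (blue) and *Sst*-positive (red) sums, with a line joining the sums of the same library and a marker shape per library. *Npy*, *Grin3a*, *Prkcq*, *Grm7* and *Lingo2* did not overlap and were higher, *Smoc1* and *Zeb2* did not overlap and were lower, and *Col25a1* and *Foxp2* moved the same way in the 4 libraries with overlapping levels.

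The same genes were looked at nucleus by nucleus, to see whether a difference in the sum came from few or from many nuclei. At least 1 *Npy* transcript was seen in 90 of the 209 *Sst*-positive nuclei (43.1%), in 8.98% of the *Sst*-zero nuclei and in 8.77% of 627 *Sst*-zero nuclei matched on depth. *Grin3a* was seen in 34.0% of the *Sst*-positive, 9.71% of the *Sst*-zero and 12.9% of the matched nuclei. *Prkcq* was seen in 44.5%, 9.45% and 9.25%, respectively. These 3 genes were therefore spread over a large share of the *Sst*-positive nuclei. In 11097 excitatory nuclei, which were deeper, *Npy* was seen in 3.76%, *Grin3a* in 3.56% and *Prkcq* in 0.487%. *Col25a1* was seen in 24.4% of the *Sst*-positive, 7.16% of the *Sst*-zero and 10.5% of the matched nuclei. *Nos1* gave 12%, 10.9% and 14.5%, and *Etv1* gave 20.1%, 15.5% and 19.8%, so the share in *Sst*-positive nuclei was below that in the matched nuclei for *Nos1* and close to it for *Etv1*, with neither difference tested. Of the 20 subtype markers, at least 2 were seen in 88.0% of the *Sst*-positive nuclei, 57.6% of the *Sst*-zero nuclei and 66.3% of the matched nuclei. The 20 include the 4 genes called higher in these same nuclei, so this share restates those calls in part. None of the 20 was seen in 8 *Sst*-positive nuclei. The shares pool libraries and nuclei, cover no gene called lower and carry no test.

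**Figure D2:**
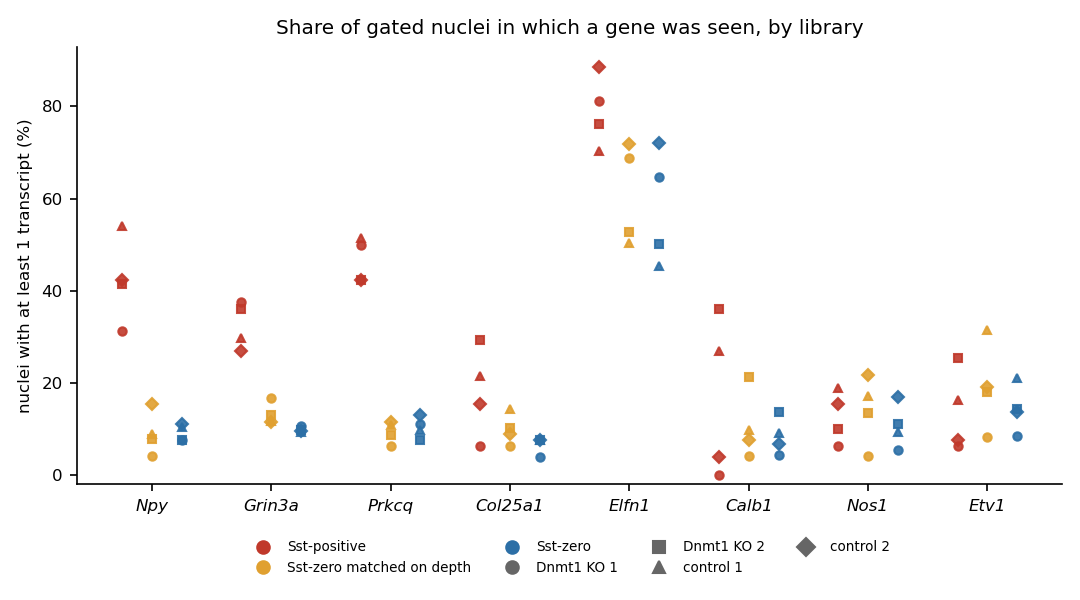
Percentage of gated nuclei with at least 1 transcript of each of 8 genes, as 1 point per library (marker shape) for *Sst*-positive nuclei (red), *Sst*-zero nuclei matched on depth (orange) and all *Sst*-zero nuclei (blue). *Npy*, *Grin3a* and *Prkcq* separate the *Sst*-positive nuclei from both other sets in every library, whereas *Nos1* and *Etv1* do not.

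Genes outside the subtype list led the ranking by fold change. *Col25a1*, which encodes a transmembrane collagen of neurons, had the largest log2 fold change among the higher genes named by the rule, 2.83 (SE 0.263, adjusted p = 0.000943). Its levels were 16.9, 204, 171 and 84.2 CPM in *Sst*-positive and 5.50, 16.1, 37.2 and 13.5 CPM in *Sst*-zero sums. The lowest value in *Sst*-positive nuclei came from 4 transcripts of 1 nucleus in Dnmt1 KO 1 and overlapped the *Sst*-zero range. *Col25a1* was not specific to the gated nuclei, since *Gad*-positive nuclei without *Lhx6* and *Nxph1* were at 4.47, 92.7, 339 and 87.2 CPM. *Prkcq*, encoding protein kinase C theta, was at 258, 97.3, 65.8 and 87.1 CPM, compared with 18.7, 15.4, 18.7 and 21.7 CPM in *Sst*-zero sums. *Prkcq* was below 4 CPM on average in *Gad*-positive nuclei without *Lhx6* and *Nxph1* (3.95 ± 6.33 CPM) and at 0.514 ± 0.397 CPM in excitatory nuclei (SD, n = 4), although the former reached 13.4 CPM in Dnmt1 KO 1 (log2 fold change 2.55, SE 0.267, adjusted p = 0.00208).

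*Lingo2*, a leucine-rich-repeat transmembrane protein gene, was at 1277, 1187, 833 and 1334 CPM, compared with 165, 387, 382 and 180 CPM in *Sst*-zero sums. The groups were far apart, and the log2 fold change was 2.14 (SE 0.273, adjusted p = 0.00377). In *Gad*-positive nuclei without *Lhx6* and *Nxph1*, *Lingo2* was at 55.9, 594, 969 and 73.8 CPM, and in excitatory nuclei at 125, 745, 395 and 135 CPM. *Man1a*, a mannosidase gene of glycoprotein processing (log2 fold change 1.90), *Pex5l*, which encodes a channel-trafficking protein of neurons (1.89), and *Prkg1*, encoding a cGMP-dependent protein kinase (1.73), likewise did not overlap. *Prkg1* overlaps *Cstf2t* in the annotation. In the *Sst*-positive nuclei of Dnmt1 KO 1, 1 nucleus gave 81 of the 124 *Prkg1* transcripts (65.3%), so the level there rested mainly on that nucleus. *L3mbtl4*, a gene of the malignant-brain-tumor-repeat family (2.22), was higher in every library with overlapping levels, and *Itga3*, an integrin subunit gene (1.79), did not overlap but rested on 68 transcripts in *Sst*-positive nuclei.

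Matching the *Sst*-zero nuclei on depth changed these values little. The log2 fold changes became 2.43 for *Npy*, 2.78 for *Prkcq*, 2.48 for *Col25a1*, 2.16 for *Grin3a*, 1.82 for *Grm7* and 2.10 for *Lingo2*, all past the threshold. For *Itga3* and *L3mbtl4* the values were 1.44 and 1.86, with adjusted p of 0.0535 and 0.0533. The receptor genes *Grm3* (0.48, adjusted p = 0.105) and *Gabrg1* (1.98, adjusted p = 0.0706), described below, did not pass at matched depth either.

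Glutamate receptors had the largest share of higher genes among the lists with at least 10 tested members. 7 of 19 tested members were higher and none lower, against 1.61% and 0.569% of all tested genes, with a list median of 0.44. The part of gene length in this share was not tested. Beside *Grin3a*, these included the metabotropic receptors *Grm7*, *Grm8* and *Grm3* and the kainate receptor subunits *Grik1* and *Grik2*. *Grm7*, a presynaptic group III receptor, was at 402, 1214, 829 and 463 CPM, compared with 118, 266, 197 and 156 CPM in *Sst*-zero sums. It did not overlap and shared the smallest adjusted p of all genes tested with *Epha6* and *Utrn* (log2 fold change 1.93, SE 0.128, adjusted p = 0.000149). *Grik1*, a kainate subunit strongly expressed by interneurons, was at 2647, 1881, 1389 and 1540 CPM, compared with 1179, 1075, 954 and 1001 CPM in *Sst*-zero sums, without overlap (log2 fold change 0.80). *Grik2* (0.44) and *Grm3* (0.64) did not overlap either, and *Grm8* (1.01) did. *Grm3* passed under 5 of 14 alternatives, *Grm8* under 6 and *Grik2* under 9, and the other called members under more. With at least 2 *Sst* transcripts required, *Grik1* and *Grm3* turned to -0.40 and -0.74, neither past the threshold, and the list's median to -0.037. 1 member of the list passed without Dnmt1 KO replicate 2, and 3 did without the library block.

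Among 18 tested genes of GABA synthesis, transport and receptors, 3 were higher and none lower (median 0.17). *Slc12a5* encodes KCC2, the chloride exporter whose rise turns GABA from a depolarizing into a hyperpolarizing transmitter. *Slc12a5* was at 93.0, 37.8, 51.3 and 33.4 CPM, compared with 24.7, 18.9, 23.8 and 19.5 CPM in *Sst*-zero sums, so that each *Sst*-positive sum exceeded each *Sst*-zero sum (log2 fold change 1.17, SE 0.196, adjusted p = 0.0150). The GABA-A receptor subunit genes *Gabra3* (0.77) and *Gabrg1* (2.21) were the other 2, and *Gabrg1* was at 0 in the *Sst*-positive sum of Dnmt1 KO 1. *Gabra3* passed under 7 of 14 alternatives, *Gabrg1* under 8 of 13 and *Slc12a5* under 9 of 13. No gene of this list passed without Dnmt1 KO replicate 2, without control replicate 1 or without the library block. Without the filter on low counts, 4 were higher and 3 lower, and with at least 2 *Sst* transcripts required, 1 was higher and 1 lower. Of 36 tested voltage-gated channel genes, *Kcnd2* (1.08), *Kcnb2* (0.57) and *Cacna2d3* (0.71) were higher and none was lower (median 0.26). *Kcnd2*, which encodes an A-type potassium channel of dendrites, was at 1501, 1331, 942 and 668 CPM, compared with 399, 656, 588 and 408 CPM in *Sst*-zero sums, without overlap. The other channel genes tested did not pass, and none of the 36 passed without Dnmt1 KO replicate 2 or without the library block. For the channel list, 5 were higher and 2 lower without the filter on low counts. With at least 2 *Sst* transcripts required, 0 were higher and 1 was lower.

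Of 42 tested adhesion and synapse-organizer genes, 6 were higher and none lower, around a list median of 0.05. The higher genes included the cadherin genes *Cdh9* (1.59) and *Cdh7* (1.33) and the contactin genes *Cntn3* (1.29) and *Cntn5* (1.13). *Cdh9* passed under 8 of 13 alternatives, *Cdh7* under 6 of 13, *Cntn3* under 7 of 14 and *Cntn5* under 12 of 14. DESeq2 did not call *Cdh7*. In the *Sst*-positive nuclei of Dnmt1 KO 1, *Cdh7* rested on 1 transcript, and 1 nucleus gave 54.8% of the *Cdh9* transcripts. *Cntnap2* (1.11, adjusted p = 0.0925), *Cntnap5a* (1.08, adjusted p = 0.0587) and *Dscam* (0.53, adjusted p = 0.0836) did not overlap but did not pass. 1 member was higher without Dnmt1 KO replicate 2, and 2 were without the library block. Lower members appeared in other settings, with 11 higher and 9 lower without the filter on low counts. With at least 2 *Sst* transcripts required, 1 was higher and 2 were lower.

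The migration and guidance list of 40 genes was split, with 2 higher, 2 lower and a median of -0.03. The split moved with the setting, to 0 higher and 1 lower without the library block, 1 and 1 without Dnmt1 KO replicate 2, and 2 and 13 without the filter on low counts. *Epha6*, an ephrin-A receptor gene, was at 245, 828, 476 and 405 CPM, compared with 97.1, 258, 155 and 146 CPM in *Sst*-zero sums (log2 fold change 1.56, SE 0.104, adjusted p = 0.000149). In Dnmt1 KO 1, *Epha6* was seen in 4 of 16 *Sst*-positive nuclei, and 1 nucleus gave 47 of the 58 transcripts (81.0%). The secreted guidance cue *Sema3a* was higher by 0.96, although it passed under 7 of 14 alternatives only. *Epha4*, a receptor for both ephrin classes, was lower, at 148, 87.9, 142 and 176 CPM, compared with 238, 245, 354 and 237 CPM in *Sst*-zero sums (log2 fold change -1.0, SE 0.166, adjusted p = 0.0140). *Epha4* did not pass without Dnmt1 KO replicate 2, without control replicate 1 or without nuclei that held excitatory or striatal markers. *Erbb4*, the neuregulin receptor that guides interneuron migration and is retained by PV cells, was lower as well. *Erbb4* was at 10356, 11979, 9996 and 8406 CPM in *Sst*-positive and at 16407, 17881, 17904 and 14387 CPM in *Sst*-zero sums. No *Sst*-positive sum reached an *Sst*-zero sum (log2 fold change -0.70, SE 0.0810, adjusted p = 0.00252).

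Genes associated with the PV class and interneuron transcription factors followed. Of 12 PV markers, 8 were tested, none was higher and *Mef2c* was lower (list median 0.13). *Mef2c* encodes a transcription factor required for PV interneuron development. It was at 622, 951, 858 and 698 CPM, compared with 1480, 1521, 1157 and 1459 CPM in *Sst*-zero sums, without overlap (log2 fold change -0.83, SE 0.138, adjusted p = 0.0142). *Mef2c* did not pass without Dnmt1 KO replicate 2 (-0.90, adjusted p = 0.0807), without control replicate 2 (-0.75, adjusted p = 0.0703) or with at least 2 *Sst* transcripts required (-1.11, adjusted p = 0.0970). *Pvalb*, *Cox6a2* and *Pthlh* were at 0 in every *Sst*-positive sum. Of 15 tested interneuron transcription factors, *Zeb2* was lower and none was higher (median -0.08). *Zeb2*, whose product steers MGE cells toward the cortex, was at 1556, 1664, 1859 and 1693 CPM, compared with 2992, 2883, 2929 and 2906 CPM in *Sst*-zero sums. The 4 *Sst*-positive sums were within a narrow band well below the *Sst*-zero sums (log2 fold change -0.78, SE 0.0886, adjusted p = 0.00248). *Satb1*, a chromatin organizer needed for SST interneurons, was at 1121, 528, 627 and 544 CPM, compared with 521, 384, 395 and 478 CPM in *Sst*-zero sums, which did not overlap but did not pass (log2 fold change 0.61, adjusted p = 0.0552). *Sox6*, which acts after LHX6, gave 0.36 (adjusted p = 0.259).

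**Figure D3:**
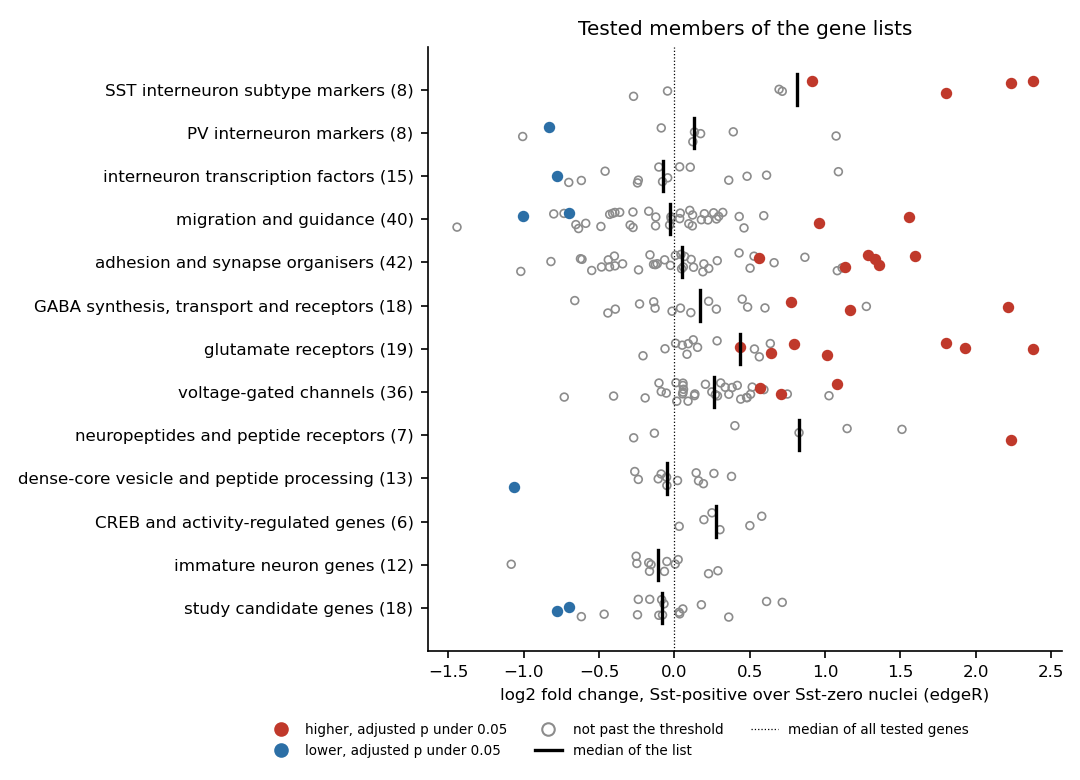
Log2 fold change of *Sst*-positive over *Sst*-zero nuclei (edgeR) for each tested member of 13 gene lists, with the number of tested members in brackets. Filled points passed the adjusted p of 0.05 (red higher, blue lower), open points did not, thick bars are list medians and the dotted line is the median of all tested genes. The glutamate receptor list holds 7 red points and no blue one, whereas the PV and transcription factor lists each hold a single blue point.

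The remaining lists held few called genes. Of 25 neuropeptides and peptide receptors, 7 were tested and *Npy* alone passed (median 0.83). The neuropeptide Y receptor gene *Npy2r* (1.15, adjusted p = 0.219) and the opioid receptor gene *Oprm1* (1.51, adjusted p = 0.142) did not pass, and 9 of the 25 were at 0 in every *Sst*-positive sum. Of 13 tested dense-core vesicle and peptide-processing genes, *Cadps2*, a priming factor for vesicle release, was lower (-1.07, list median -0.05). None of 6 tested CREB and activity-regulated genes (median 0.28) and none of 12 immature neuron genes (median -0.11) passed. Of 18 candidate genes followed elsewhere in *Dnmt1*-deficient SST interneurons, 2 were lower, *Erbb4* and *Zeb2*, and none was higher (median -0.08). The study chose these genes for their response to *Dnmt1* loss, not for the comparison made here.

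The 12 genes named for the largest decrease had varied products. *Smoc1*, a secreted calcium-binding matrix protein gene, was at 8.46, 10.3, 17.1 and 5.81 CPM in *Sst*-positive and at 21.7, 43.4, 78.9 and 38.7 CPM in *Sst*-zero sums. The groups did not overlap (log2 fold change -2.15, SE 0.207, adjusted p = 0.00119). *Ccbe1*, another secreted matrix protein gene, was at 0, 19.2, 17.1 and 4.36 CPM, compared with 25.3, 67.8, 73.4 and 91.7 CPM in *Sst*-zero sums (log2 fold change -2.35, adjusted p = 0.00497). In Dnmt1 KO 1, *Ccbe1* was seen in 0 of 16 *Sst*-positive and 9 of 272 *Sst*-zero nuclei. In Dnmt1 KO 2, 1 *Sst*-positive nucleus gave 30 of its 39 transcripts. The secreted protein gene *Ism1* (-2.05), the metalloprotease genes *Adamts17* (-1.77) and *Adamts18* (-1.70), the ubiquitin ligase gene *Pdzrn3* (-1.43), the tetraspanin gene *Tspan11* (-1.32) and the transcriptional cofactor *Eya1* (-1.23) were also lower without overlap. The matrix glycoprotein gene *Tnc* (-1.37) and the homeodomain factor *Pbx3* (-1.27) were lower in every library with overlapping levels, and *Pbx3* and *Adamts18* each passed under 7 of 14 alternatives. *Pbx3* was at 1172 ± 290 and *Pdzrn3* at 595 ± 203 CPM in *Gad*-positive nuclei without *Lhx6* and *Nxph1*, and *Ccbe1* was at 298 ± 95.9 and *Adamts18* at 293 ± 48.5 CPM in excitatory nuclei (SD, n = 4). Over all 61 lower genes, the excitatory mean was above the *Sst*-zero mean for 22 (36.1%), against 41.7% of all tested genes. In Dnmt1 KO 2, *Adamts18* was seen in 16.2% of the *Sst*-positive and 15.3% of the *Sst*-zero nuclei, and *Slc1a3* in 17.7% and 13.8%. Their lower levels there thus did not go with fewer nuclei holding the gene. The other genes named for the largest decrease were seen in a smaller share of the *Sst*-positive nuclei there, such as *Smoc1* (8.46% against 18.1%).

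Markers of other cell types were examined beside these results. *Foxp2*, a forkhead factor of striatal projection neurons, was lower at 38.1, 85.0, 163 and 62.4 CPM, compared with 151, 230, 293 and 197 CPM in *Sst*-zero sums (log2 fold change -1.34, SE 0.163, adjusted p = 0.00296). It stood at 972 ± 540 CPM in *Gad*-positive nuclei without *Lhx6* and *Nxph1* and at 642 ± 103 CPM in excitatory nuclei (SD, n = 4). The glial and progenitor transporter *Slc1a3* was lower too (-1.48), and the other 7 tested progenitor markers did not pass. Of the markers of interneurons from the caudal ganglionic eminence (CGE), *Npas3* was lower (-0.57, adjusted p = 0.0127) and 4 did not pass, among them *Adarb2* (-1.59, adjusted p = 0.156) and *Nr2f2* (1.09, adjusted p = 0.0647). None of 9 tested excitatory markers passed, and of the microglial and vascular markers the endothelial receptor *Flt1* was higher (2.17), at 0, 59.9, 1.32 and 134 CPM, compared with 1.1, 14.6, 1.58 and 21.2 CPM in *Sst*-zero sums.

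Summed over each list, CGE markers ranged from 2593 to 4119 CPM in *Sst*-positive and from 4041 to 5286 CPM in *Sst*-zero sums. The striatal markers ranged from 207 to 1096 CPM against 535 to 1328 CPM, and the excitatory markers from 63.4 to 871 CPM against 278 to 732 CPM. The first 2 lists were thus lower in the *Sst*-positive sum of each library. The excitatory sums were lower in *Sst*-positive nuclei of both Dnmt1 KO libraries (63.4 against 278 CPM and 389 against 532 CPM). In both controls they were higher (672 against 440 CPM and 871 against 732 CPM). None of the tested excitatory markers passed the interaction with genotype, described below. The MGE interneuron list, which holds the gate genes and in which *Erbb4* has the highest level, was lower as well, at 18823 to 25875 CPM against 25133 to 29952 CPM. Progenitor markers ranged from 88.8 to 274 CPM against 178 to 317 CPM, and microglial and vascular markers from 12.7 to 152 CPM against 9.35 to 43.3 CPM. Oligodendrocyte precursor markers summed to at most 2.63 CPM in *Sst*-positive nuclei, with 3 of 5 at 0, and Cajal-Retzius markers to at most 44.7 CPM. Nuclei that held 3 or more transcripts of excitatory or striatal markers made up 12.5%, 20.8%, 27.0% and 42.3% of the *Sst*-positive nuclei. Among *Sst*-zero nuclei they made up 17.3%, 21.4%, 20.4% and 37.2%. Without these nuclei, 195 genes were higher and 64 lower, of which 146 were shared with the 234. Apart from that setting, the part of these cells in the result was not tested.

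The level of *Sst* itself was then related to the other genes within Dnmt1 KO replicate 2, the only library with more than 10 nuclei at 2 or more *Sst* transcripts. These are the nuclei that dominate the calls, so the order is a description without a test, and the intervals are exact 95% Poisson intervals that cover counting error only. *Npy* was at 10.5 CPM (8.82 to 12.3) in 1032 nuclei with no *Sst*, at 38.9 CPM (27.5 to 53.3) in 67 nuclei with 1 *Sst* transcript and at 64.3 CPM (49.9 to 81.5) in 63 nuclei with 2 or more. *Grm7* was at 266 CPM (257 to 275), 563 CPM (517 to 613) and 1815 CPM (1734 to 1898) in the same order. *Col25a1* was at 16.1, 106 and 294 CPM. All 3 genes thus increased stepwise with the number of *Sst* transcripts in this library, where *Sst* and the deletion go together by design. The controls had 8 and 6 nuclei with 2 or more *Sst* transcripts. From 1 to 2 or more, *Npy* and *Grm7* rose in both controls. *Col25a1* went from 219 to 0 CPM in control 1 and from 15.4 to 292 CPM in control 2. *Grin3a* fell in both, from 92.8 to 5.97 CPM and from 154 to 29.2 CPM.

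Within Dnmt1 KO replicate 2, *Erbb4* went down instead, from 17881 CPM (17810 to 17951) over 14846 CPM (14605 to 15089) to 9329 CPM (9146 to 9515). *Zeb2* fell from 2883 to 2158 and 1207 CPM, and *Mef2c* from 1521 to 1308 and 622 CPM. *Foxp2* was at 230, 119 and 53.9 CPM. Not every gene was graded: *Prkcq* was at 15.4, 99.2 and 95.5 CPM, and *Reln* at 536, 918 and 426 CPM, so that nuclei with a single *Sst* transcript were as high as or higher than those with more. Among the genes that passed and were named by the rule or listed, 23 of 31 higher genes and 14 of 17 lower genes were ordered over the 3 classes of nuclei. Nuclei with 2 or more *Sst* transcripts were above *Sst*-zero nuclei for 31 of 31 and 0 of 17. The choice of the genes, which were called in part on these nuclei, all but set this direction. No share of ordered genes over all tested genes was computed. The median transcript number also rose over the 3 classes, from 9982.5 to 12146 and 14026.

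**Figure D4:**
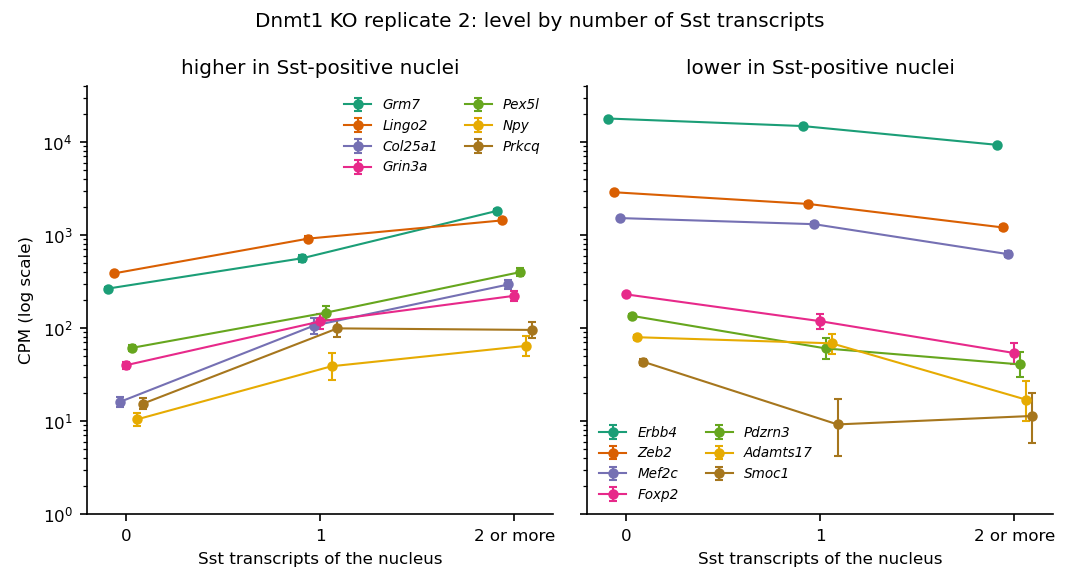
Levels in Dnmt1 KO replicate 2, in CPM on a log axis, for nuclei with 0, 1 and 2 or more *Sst* transcripts (1032, 67 and 63 nuclei), for 7 higher genes (left) and 7 lower genes (right), with exact 95% Poisson intervals as bars. *Grm7* climbs from 266 to 1815 CPM and *Erbb4* drops from 17881 to 9329 CPM, whereas *Prkcq* is level between the 2 classes of nuclei with *Sst*.

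The stability of the 48 genes that passed and were named by the rule or listed was followed across 14 alternatives. Of 657 values, 653 kept the direction and 496 kept an adjusted p below 0.05. *Grm7*, *Man1a* and *Pex5l* passed under all 14, and *Col25a1*, *Npy* and *Prkcq* under the 13 in which they were tested, which leave out thinning. *Lingo2*, *Erbb4* and *Zeb2* did not pass with at least 2 *Sst* transcripts required, *Erbb4*, *Foxp2* and *Smoc1* did not pass without the library block, *Foxp2* did not pass without doublets, and *Adamts17* did not pass without control replicate 1 or without control replicate 2. Without Dnmt1 KO replicate 2, 18 of the 48 passed, among them *Erbb4*, *Zeb2*, *Foxp2*, *Smoc1*, *Lingo2* and *Epha6*. Without control replicate 1, 28 passed, without control replicate 2, 37 did, and without Dnmt1 KO replicate 1, 44 did. Without the library block, 20 passed. With at least 2 *Sst* transcripts required, 22 passed and 3 changed direction. Without nuclei that held excitatory or striatal markers, 32 of 47 passed and 1 changed direction.

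Whether the difference between *Sst*-positive and *Sst*-zero nuclei depended on the *Dnmt1* genotype was addressed with an interaction term. No gene passed (0.0% of 10726), the smallest adjusted p was 0.809, and 310 genes (2.89%) had an unadjusted p below 0.05. DESeq2 also called 0 genes, with 130 at an unadjusted p below 0.05. With the same range applied to mapped reads, *Meis2* and *Tafa1* passed. Without Dnmt1 KO replicate 2, 24 genes did, but the genotype then rests on 1 library with 16 *Sst*-positive nuclei, which is assumed to vary as the control libraries do. The 24 genes named by the rule had interaction values between -1.13 and 1.53 on the log2 scale, and the smallest unadjusted p among them was 0.00815 (*Prkcq*). Among the 48 genes that passed and were named or listed it was 0.000531, for *Cntn3* (interaction 1.42, adjusted p = 0.809). *Cntn3* was at 275, 163, 72.3 and 82.7 CPM in *Sst*-positive and at 59.1, 49.9, 60.9 and 48.0 CPM in *Sst*-zero sums, so that the Dnmt1 KO libraries had the larger differences. *Dnmt1* itself was at 76.1, 46.2, 80.2 and 66.8 CPM in *Sst*-positive and at 59.7, 50.7, 65.3 and 54.9 CPM in *Sst*-zero sums. The *Sst*-positive sums rested on 18, 94, 61 and 46 *Dnmt1* transcripts, the KO and control values overlapped in both kinds of nuclei, and the interaction was -0.25 (unadjusted p = 0.402 in edgeR's test). The means in *Sst*-positive sums were 61.1 ± 21.2 CPM in Dnmt1 KO and 73.5 ± 9.52 CPM in control (SD, n = 2), so these totals do not settle whether the level was lower in Dnmt1 KO, and counting by exon was not possible from them.

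The share of gated nuclei with *Sst* was 5.56%, 11.2%, 5.41% and 6.63%, with exact 95% binomial intervals of 3.21 to 8.87, 9.43 to 13.1, 3.84 to 7.38 and 4.38 to 9.57. Dnmt1 KO replicate 2 was highest, with an interval that overlapped that of control replicate 2 at its edge, and the intervals of the other 3 libraries overlapped each other. The means were 8.37% ± 3.98 in Dnmt1 KO and 6.02% ± 0.865 in control (SD, n = 2), a difference of 2.35 percentage points (exact two-sided permutation test, p = 0.667, where 0.333 is the smallest p that 2 against 2 allows). Without Dnmt1 KO replicate 2 the difference was -0.465 points, and without control replicate 2, which leaves a single batch, it was 2.96 points. In nuclei thinned to 1500 transcripts the shares were 0.694%, 2.41%, 0.877% and 1.28%. As a background, *Sst* was seen in 0.0951%, 0.284%, 0.195% and 0.103% of the excitatory nuclei, whose median transcript numbers of 14945, 15626, 16142 and 24466.5 were above those of the *Sst*-positive nuclei. In *Gad*-positive nuclei without *Lhx6* and *Nxph1*, *Sst* was seen in 0.416% and 0.431% of those of Dnmt1 KO 2 and control 1. It was seen in 0 of 74 such nuclei of Dnmt1 KO 1 and in 0 of 87 of control 2. The exact 95% binomial intervals of these 2 libraries reach up to 4.86% and 4.15%.

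**Figure D5:**
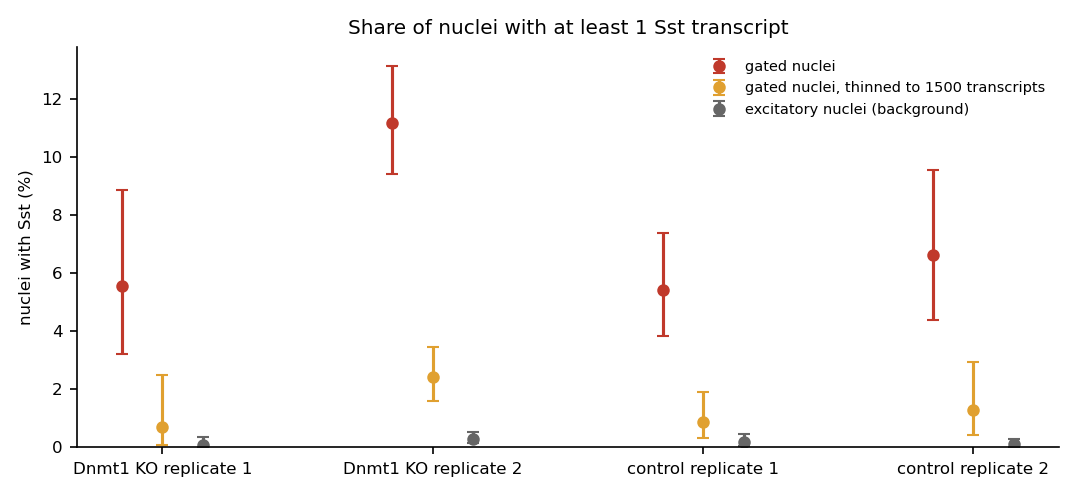
Percentage of nuclei with at least 1 *Sst* transcript in each library among gated nuclei (red), gated nuclei thinned to 1500 transcripts (orange) and excitatory nuclei (grey), with exact 95% binomial intervals as bars. Dnmt1 KO replicate 2 is highest in the first 2 sets, and the excitatory background stays below 0.3% in every library.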

How the data were processed

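Nuclei from frozen E16.5 medial neocortex were barcoded by split-pool indexing (Parse Evercode WT), and the authors deposited raw transcript counts (1 per unique molecular identifier) for every barcode and gene, made with Trailmaker on GRCm39. Counting of strand and introns is not given in the sources used here, so overlapping genes may share reads. A barcode was kept as a nucleus at 1500 to 60000 transcripts, and a mitochondrial limit of 10% removed 0 barcodes. In the study's methods the range refers to reads, which was run as an alternative. Nuclei are not replicates, so raw counts were summed per library and *Sst* status into 8 profiles, and CPM are these sums rescaled to an equal total.

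The profiles were tested with edgeR 4.0.16 (R 4.3.3, quasi-likelihood, TMM, filterByExpr by *Sst* status, Benjamini-Hochberg over all genes tested) with library as a block, leaving 3 residual degrees of freedom. The 5 gate genes were left out of the tests. The block pairs nuclei of 1 library: deviations of the *Sst*-positive and *Sst*-zero sums of the same library correlated at 0.390 to 0.658, and those of different libraries at -0.366 to 0.0154. The deviations were taken from each gene's mean over the 4 libraries. Positive values within libraries therefore pull those between libraries down, and the latter are no separate evidence. P-values measure the spread of the within-library difference over these 4 libraries, with each gene's spread moderated toward a trend over all genes. Each SE is the absolute log2 fold change divided by the square root of the test's F value. The interaction of *Sst* status with genotype used the same filter. Shares were compared by an exact permutation test. DESeq2 1.42.0, thinning (seed 7), depth matching (3 *Sst*-zero nuclei per *Sst*-positive nucleus), and scrublet in scanpy 1.11.5 (expected rate 5%) served alternatives, and doublets were kept otherwise. The fit was tested on simulated data.

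The genes named were the 12 with the largest absolute log2 fold change in each direction among those that passed, had the same sign in the 4 libraries and reached a mean of 20 CPM in either kind of nuclei, without predicted genes (Gm and Rik symbols), and members of the gene lists. Some genes that these rules name are not reported here, although the counts and list medians include them. The nuclei, lists and rules were chosen with earlier results of these data known. Coordinates are from GENCODE vM39 (GRCm39), promoter sequences from RefSeq (GRCm38.p6).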

Additional observations from a re-analysis of the deposited data

Results flagged for a closer look

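Among 99 groups of 4 library values of called or gate genes, 7 held a library far from the other 3, with a gap to the nearest library, relative to the range, above Dixon's 95% critical value for 4 samples, and chance puts about 5% of such groups past it. In the *Sst*-positive sums, Dnmt1 KO replicate 1 stood apart for *Sema3a* (1243 CPM, others 337 to 444) and *Prkcq* (258 CPM, others 65.8 to 97.3), and control replicate 2 for *Prkg1* (221 CPM, others 492 to 524). In the *Sst*-zero sums, control replicate 1 stood apart for *Epha4* (354 CPM, others 237 to 245), *Kcnb2* (747 CPM, others 878 to 888) and *Mef2c* (1157 CPM, others 1459 to 1521), and control replicate 2 for *Man1a* (57.6 CPM, others 28.6 to 32.4). Without the library that stood apart, *Epha4* and *Kcnb2* did not pass, whereas the other 5 genes did.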

How the results depend on the processing

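The count of 234 genes was within 1.5-fold under DESeq2 (284), a stricter *Lhx6* and *Nxph1* gate (234), the range on mapped reads (315), and without doublets (322) or nuclei with other markers (259), at matched depth (208) and after thinning (181, of 4258 genes tested). It was 656 without the low-count filter, 116 with at least 2 *Sst* transcripts and 115 without the replicate block, and ranged from 52 to 237 without 1 library, 52 being without Dnmt1 KO replicate 2 and 105 without control replicate 1. The interaction count of 0 became 54 without the low-count filter, 5 with at least 2 *Sst* transcripts (among them *Dock6*, *Flt1*, *Nell1* and *Samd5*) and 2 with the range on mapped reads. It was 0 without the replicate block and ranged from 0 to 24 without 1 library, 24 being without Dnmt1 KO replicate 2. The difference in *Sst* share ranged from -0.465 to 5.17 points without 1 library and was 3.67 points (exact p = 0.333) on mapped reads. With at least 2 *Sst* transcripts, the log2 fold changes of *Cntn3*, *Grik1* and *Grm3* turned to -0.022, -0.40 and -0.74, and that of *Grm3* was -0.012 without nuclei with other markers. The median of the PV list turned to -0.57 without the low-count filter, -0.31 with at least 2 *Sst* transcripts and -0.18 without nuclei with other markers, and ranged from -0.079 (without Dnmt1 KO replicate 2) to 0.14 without 1 library. The medians of the GABA, glutamate receptor and channel lists turned to -0.041, -0.037 and -0.048 with at least 2 *Sst* transcripts, and the GABA median ranged from -0.021 (without Dnmt1 KO replicate 2) to 0.19 without 1 library. The peptide median turned to -0.22 without the low-count filter. The CREB median turned to -0.042 on mapped reads and ranged from -0.025 (without control replicate 2) to 0.50 without 1 library. After thinning, no member of the peptide and CREB lists was tested. The cause of these changes was not tested. Depth limits the comparison most in Dnmt1 KO replicate 1, with 16 *Sst*-positive nuclei.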

Other observations

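Genes that differed between *Sst*-positive and *Sst*-zero nuclei were long. The median span from start to end of the annotated gene was 189 kb for the 173 higher and 163 kb for the 61 lower genes, against 37.0 kb for all tested genes. A span above 100 kb was found in 74.0% and 72.1% of them, against 21.4% of the tested genes. They were also more highly expressed, with median *Sst*-zero levels of 68.4 and 103 CPM against 22.2 CPM. Nuclear RNA holds unspliced transcripts, and the part of gene length and level in the number of calls was not tested.

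The gene with the smallest unadjusted p for the interaction with genotype was *Tafa1*, which encodes a secreted neurokine. It was at 12.7, 523, 293 and 56.6 CPM in *Sst*-positive and at 11, 317, 44.5 and 12.6 CPM in *Sst*-zero sums, an interaction of -1.83 on the log2 scale (edgeR unadjusted p = 9.33e-05, adjusted p = 0.809). It was chosen after its values were seen.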
